A study of Mus musculus with 9 samples.

Results

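T cells that had met allogeneic dendritic cells were compared with T cells stimulated by antibodies against CD3e and CD28, using 6 of the 9 arrays of the study, 3 in each group. The arrays were chosen by their titles, and each allogeneic array was set against the antibody array with the same replicate number. All T cells were of the C57BL/6 strain and were cultured for 24 h. The allogeneic group had been mixed with BALB/c dendritic cells at 20 T cells per dendritic cell, and the antibody group had received 0.1 µg/ml of anti-CD3e and anti-CD28, with no dendritic cells named. The 3 remaining arrays came from T cells mixed with dendritic cells of their own C57BL/6 strain (syngeneic), and their values are given only beside results of the other groups. They also entered the choice of each gene's probe set and the estimate of spread behind the p-values and standard errors (SE). All cultures then went through depletion with CD11c microbeads and negative selection of T cells, ultraviolet crosslinking with a first dose of 400 mJ/cm2, immunoprecipitation with an antibody to Argonaute (AGO), and amplification of the recovered RNA for Affymetrix arrays. The signals therefore measure transcripts recovered with AGO proteins, and no array of unselected RNA was used here, so a level cannot be split into abundance and AGO association. The question stated for the study is which transcripts respond to alloantigen in a way that differs from nonspecific stimulation.

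Alloreactive T cells recognise foreign major histocompatibility complex (MHC) molecules on the dendritic cell, which also supplies costimulatory ligands, adhesion and cytokines. Antibodies to CD3 and CD28 trigger the T cell receptor complex and the costimulatory receptor directly, on nearly every T cell, whatever its receptor specificity. AGO proteins carry microRNAs to their target messenger RNAs. Because only the allogeneic culture held dendritic cells by its label, the stimulus and the presence of dendritic cells cannot be told apart in this comparison. In such bulk samples, fewer cells of a type and less RNA per cell cannot be told apart either.

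The 2 arrays of replicate 1 were nearly the same. Across 18193 genes, each represented by its brightest probe set, 49.0% had equal signals (within 1e-09 log2) on the allogeneic and antibody arrays of replicate 1, and the SD of the log2 difference was 0.103. The allogeneic array of replicate 1 differed from the syngeneic array of that number with an SD of 0.422. In replicates 2 and 3 the SD of allogeneic minus antibody was 0.493 and 0.680, and 21.6% and 28.8% of genes had equal signals. Equal signals lay mostly at or under the array median, as did 62.6%, 69.2% and 86.6% of them in replicates 1, 2 and 3. The library labelled anti-CD3/CD28 replicate 1 also carried some dendritic cell transcripts near the level of its allogeneic partner: Ccl17, a chemokine of mature dendritic cells, read 9.80 against 10.01, the actin-bundling protein gene Fscn1 read 9.97 against 10.44, and Ccl22 read 11.17 against 11.64. For these 3 of 22 mature dendritic cell genes, that array goes against its label. The mean of the 22 on that array, 6.92, was also near the 7.01 of the allogeneic and the 6.99 of the syngeneic array of replicate 1. On antibody replicates 2 and 3 the mean was 6.83 and 6.79. The medians of antibody replicates 1, 2 and 3 differed, at 4.85, 6.20 and 5.52, so these means are not on one scale. Cd86, another of the 22, read 6.84, 6.82 and 6.78 on the antibody arrays. Because the arrays of replicate 1 were nearly the same, replicates 2 and 3 are given apart throughout. The array medians were 4.85, 6.24 and 5.92 in the allogeneic group and 4.85, 6.20 and 5.52 in the antibody group. Fibroblast and matrix genes, 14 measured, averaged 7.14 to 8.88 on the 3 arrays of replicate 2 and 4.42 to 4.95 on the other 6. T cell identity genes averaged 9.35 to 10.71 on the 6 arrays compared, so the labelled cell type was borne out by its defining markers. The labels call the replicates biological and name no animals or cultures, so the p-values measure the spread between these arrays, which may be technical.

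No gene passed the test of the 3 allogeneic against the 3 antibody arrays, whose spread was estimated over all 9 arrays. With limma and Benjamini-Hochberg adjustment over all genes, 0.0% of 18193 genes were called at an adjusted p of 0.05, the smallest adjusted p was 1, and 24 genes had an unadjusted p under 0.05, 23 of them higher in the allogeneic group. With the replicate number as a block, again 0.0% were called, the smallest adjusted p was 0.928 and 205 genes had an unadjusted p under 0.05. The gene with the lowest p, Ccl17, stood 2.94 ± 0.92 (SE, n = 3 and 3) higher in log2 signal in the allogeneic group, with an adjusted p of 1 in limma. An exact sign-flip test on 3 pairs cannot give a two-sided p below 0.25, and on 2 pairs none below 0.5. What follows therefore describes signals and differences, without a call.

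Within replicate 2, 268 genes stood more than 1 log2 unit (2-fold) higher in the allogeneic array (1.47% of all genes) and 782 stood more than 1 lower (4.3%). Replicate 3 had the opposite balance, with 1666 higher (9.16%) and 356 lower (1.96%). Replicate 1 had 1 gene past that size (0.0055%), Maged2, at 1.28. The extremes were other genes in each number. In replicate 2, Rabep2 was highest at 4.23 and Cenpe, a kinesin of the kinetochore, was lowest at -3.999. In replicate 3, Il17a, the cytokine of type 17 helper cells, was highest at 6.60 and Npy1r was lowest at -3.68. Across genes, the differences of replicates 2 and 3 had a Pearson correlation of 0.04 and a Spearman correlation of -0.09 (n = 18193 genes, which are not independent). Genes past 1 log2 unit in the same direction in replicates 2 and 3 numbered 101 higher (0.555%) and 32 lower (0.176%). The 101 were 37.7% of those past that size in replicate 2 and 6.06% of those in replicate 3, and the 32 were 4.09% and 8.99%. Another 87 genes (0.478%) were lower in replicate 2 and higher in replicate 3, and 11 (0.0605%) the reverse. The split depended on scaling: with each array centred on its median, which moves every difference of replicate 3 by -0.40, 72 genes were higher and 73 lower, and with quantile normalization 105 and 64. Centring shifted every replicate 3 difference by -0.40 and left 23.9% of all genes higher there, so a gene list is set against the median of all genes under each alternative. Centring shifts a list and all genes alike, so it cannot move a list median taken relative to all genes. On all 6 arrays, the 3 allogeneic signals lay above the 3 antibody signals for 49 genes (0.269%) and below them for 10 (0.055%), and 799 genes (4.39%) were higher in every replicate number and 469 (2.58%) lower. At the edge of the higher class lay Igkv6-14 (1.00 and 2.77) just inside and Amigo2 (1.33 and 0.995) just outside, and at the edge of the lower class Iqgap1 (-2.13 and -1.01) and N4bp2 (-1.38 and -0.997).

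**Figure D1:**
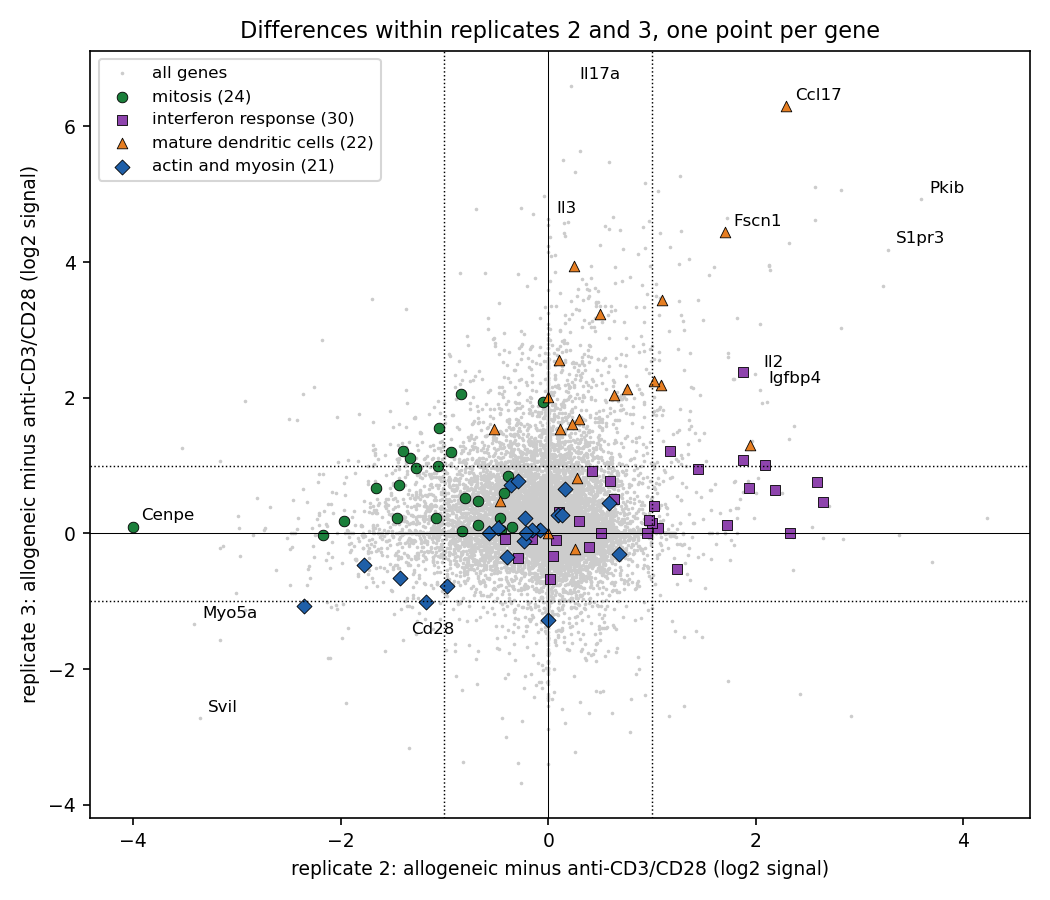
Allogeneic minus anti-CD3/CD28 in log2 signal, replicate 2 on the horizontal and replicate 3 on the vertical axis, with 1 grey point for each of 18193 genes, coloured points for members of 4 lists, and dotted lines at 1 and -1. Mitosis genes lie left of 0 on the horizontal axis, mature dendritic cell genes mostly in the upper right, and Svil in the lower left.

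The 12 genes with the widest shared difference toward the allogeneic arrays of replicates 2 and 3 were Pkib, S1pr3, Cxcl3, Il1rn, Sort1, Il6, Mreg, Ccl17, Marcks, Aldh1a2, Spsb1 and Igfbp4. Ccl17, which draws CCR4-bearing T cells, read 10.01, 9.83 and 12.16 on allogeneic replicates 1, 2 and 3 and 9.80, 7.53 and 5.86 on the antibody arrays. The groups narrowly did not overlap, and the separation came from replicates 2 and 3 since replicate 1 differed by 0.21. Il6, a cytokine of myeloid and stromal cells, read 4.21, 5.58 and 7.44 against 4.21, 3.01 and 2.81. Only the allogeneic array of replicate 3 lay above its own median, and 5 of the 6 Il6 signals were at or under the array median, where no detection call was used. Il1rn, the secreted antagonist of the interleukin-1 receptor, read 5.01, 7.27 and 8.66 against 5.07, 4.45 and 3.60, and all 3 of its probe sets had the same sign in replicates 2 and 3. Cxcl3, a neutrophil chemokine, read 5.86, 6.04 and 6.84 against 5.89, 2.82 and 3.20.

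S1pr3, a receptor for sphingosine 1-phosphate, read 4.33, 7.03 and 7.29 on the allogeneic arrays and 4.33, 3.76 and 3.10 on the antibody arrays. Replicate 1 gave equal signals, while replicates 2 and 3 differed by 3.27 and 4.18, but 4 of the 6 signals were at or under the array median, both lower ones among them. Pkib, an inhibitor of protein kinase A, read 6.63, 9.31 and 10.21 against 6.86, 5.71 and 5.28, a mean difference of 2.76 ± 0.94 (SE). Its syngeneic signals were 8.16, 9.74 and 10.84, above the antibody array of each number. Igfbp4, a binding protein for insulin-like growth factors, read 9.60, 11.24 and 11.10 against 9.34, 9.20 and 8.98. Its groups did not overlap, its 6 probe sets all had the same sign in replicates 2 and 3, and its mean difference was 1.47 ± 0.52 (SE). The syngeneic arrays read 10.19, 11.58 and 11.20 for Igfbp4.

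The other genes of the 12 highest were Sort1, a sorting receptor (differences of 2.82 and 3.03 in replicates 2 and 3), Mreg, a melanosome and membrane trafficking gene (2.32 and 4.28), Marcks, an actin-binding substrate of protein kinase C (2.14 and 3.88), Aldh1a2, an enzyme of retinoic acid synthesis (2.13 and 3.96), and Spsb1, a SOCS box adaptor (2.13 and 3.95). For these 5 genes replicate 1 differed by 0.22 or less. For Sort1 1 of 3 probe sets and for Marcks 1 of 7 had the other sign in replicate 2. Beyond these, Socs3, a feedback inhibitor of cytokine signalling, read 9.50, 10.18 and 10.81 against 9.40, 7.81 and 9.22, with no overlap between the groups. In replicate 1, 43 of the 101 genes were higher, 24 lower and 34 equal, beside 24.3%, 26.7% and 49.0% of all genes. None of the 101 differed by more than 0.613 there.

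**Figure D2:**
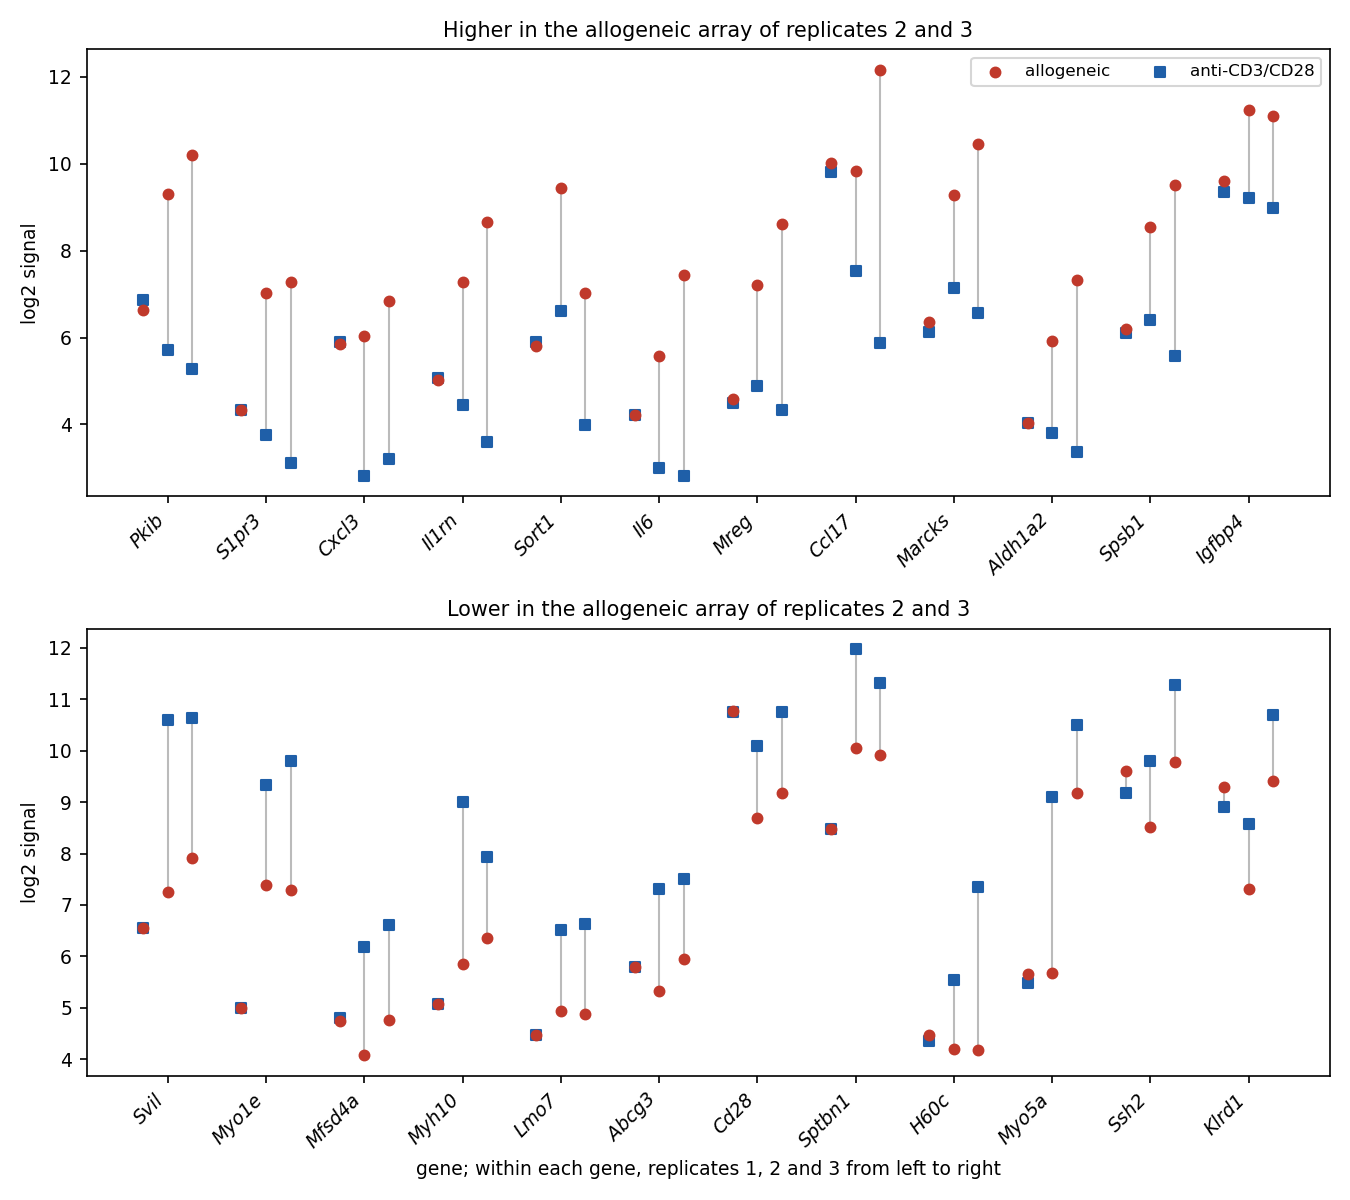
Log2 signal (vertical axis) of the 12 genes with the widest shared difference in each direction, with allogeneic arrays as red circles, antibody arrays as blue squares, and replicates 1, 2 and 3 from left to right within each gene. The pairs of replicate 1 lie close together for all 24 genes, the most for Ssh2 at 0.42, and those of replicates 2 and 3 are apart.

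The 12 genes with the widest shared difference in the lower direction were Svil, Myo1e, Mfsd4a, Myh10, Lmo7, Abcg3, Cd28, Sptbn1, H60c, Myo5a, Ssh2 and Klrd1. Svil, which encodes the actin- and myosin-binding protein supervillin, read 6.56, 7.25 and 7.92 on the allogeneic arrays and 6.56, 10.60 and 10.64 on the antibody arrays. Replicate 1 was low and equal in both groups, and both probe sets gave lower allogeneic signals in replicates 2 and 3. The syngeneic arrays read 6.36, 8.46 and 8.16 for Svil, below the antibody arrays in every number. Myo1e, a class I myosin, read 4.99, 7.39 and 7.30 against 4.99, 9.34 and 9.80, although 2 of its 4 probe sets had the other sign or no difference in replicate 2. Myo5a, a vesicle-carrying myosin, read 5.66, 5.69 and 9.17 against 5.49, 9.10 and 10.50, with 3 of 3 probe sets lower in replicates 2 and 3. Sptbn1, a spectrin of the membrane skeleton, read 8.47, 10.05 and 9.92 against 8.47, 11.98 and 11.32. Myh10 (non-muscle myosin heavy chain), Lmo7 (an actin-associated scaffold) and Ssh2 (a phosphatase that activates cofilin) differed by -3.16, -1.57 and -1.28 in replicate 2 and by -1.58, -1.74 and -1.49 in replicate 3. For Myh10 and Lmo7, 1 of 2 probe sets shared that sign in replicate 2, as did 1 of 4 for Mfsd4a.

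Cd28, the receptor engaged by one of the antibodies, read 10.78, 8.68 and 9.18 on the allogeneic arrays and 10.76, 10.09 and 10.75 on the antibody arrays. The antibody arrays stayed between 10.09 and 10.76 while the allogeneic arrays of replicates 2 and 3 were lower, and both probe sets had that sign. The mean difference was -0.98 ± 0.61 (SE), and the syngeneic arrays read 10.63, 8.82 and 9.93. The cytotoxic lymphocyte receptor gene Klrd1 read 9.30, 7.32 and 9.41 against 8.90, 8.58 and 10.70, so replicate 1 had the other sign. Mfsd4a, a membrane transporter, Abcg3, an ABC transporter of mice, and H60c, a ligand of the receptor NKG2D, completed the 12, with differences of -2.10, -1.99 and -1.34 in replicate 2 and of -1.84, -1.55 and -3.17 in replicate 3. Crtam, an adhesion receptor of activated cytotoxic cells, read 6.46, 6.83 and 6.52 against 6.46, 8.02 and 7.78. Mical1, which oxidises and disassembles actin filaments, was lower without overlap at 9.67, 8.02 and 9.25 against 9.83, 11.02 and 10.12.

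Among the 21 measured genes of the actin and myosin list, 15 were lower in replicate 2, and 9 were lower and 10 higher in replicate 3, beside 31.4% and 28.1% of all genes lower. Actn4, an actin crosslinker, read 5.74, 7.89 and 10.12 against 5.74, 10.25 and 11.19, and Myh9, the main non-muscle myosin of T cells, read 13.69, 12.54 and 12.14 against 13.83, 13.72 and 13.16. Lcp1, the leukocyte actin bundler plastin, read 12.30, 11.27 and 12.22 against 12.30, 12.70 and 12.88. By contrast Actb differed by no more than 0.23 in any number, and Vim was higher by 0.58 and 0.44 in replicates 2 and 3. The list median was -0.23 in replicate 2 and 0.00 in replicate 3, beside 0.00 for all genes in both.

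Cell cycle genes went opposite ways in replicates 2 and 3. All 24 measured mitosis genes were lower in the allogeneic array of replicate 2, with a median of -0.99 and 12 genes under -1, whereas 23 of 24 were higher in replicate 3, with a median of 0.56 and 6 genes over 1. Of all genes, 18.5% were lower in replicate 2 and higher in replicate 3, and the median of all genes was 0.00 in each number. Cenpe read 5.37, 4.47 and 7.82 against 5.37, 8.47 and 7.72. Aurkb, the kinase of the chromosomal passenger complex, read 8.22, 6.76 and 7.87 against 8.12, 8.09 and 6.76. Mki67, the proliferation marker, read 10.40, 8.96 and 10.80 against 10.67, 10.41 and 10.57. Centring or quantile normalization left 24 of 24 lower in replicate 2. Relative to all genes, the replicate 3 median of 0.56 cannot change with centring, where 14 of 24 were higher beside 23.9% of all genes. With quantile normalization that median was 0.18, and 15 of 24 were higher beside 47.2%.

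Replication and growth genes shared the replicate 2 pattern. Of 33 DNA replication and G1/S genes, 27 were lower in replicate 2, with a median of -1.06 and 18 under -1, beside 31.4% and 4.3% of all genes. Replicate 3 had 17 higher and 14 lower, beside 43.1% and 28.1% of all genes. Its median of 0.18, relative to all genes, ranged from -0.04 to 0.18 over 4 alternatives, of which centring cannot move it. Mcm3, a subunit of the replicative helicase, read 10.79, 8.31 and 10.77 against 11.17, 10.30 and 11.20, lower in every number. Rrm1, the large subunit of ribonucleotide reductase, read 10.25, 8.85 and 10.40 against 10.61, 10.64 and 10.43, and its groups did not overlap. Pole, the catalytic subunit of DNA polymerase epsilon, read 4.88, 4.76 and 8.81 against 4.93, 7.25 and 9.57. In replicate 2, 23 of 25 ribosome biogenesis genes, 19 of 21 glycolysis and nutrient transport genes and 11 of 16 cholesterol genes were lower, with medians of -0.60, -0.65 and -0.73. In replicate 3 their medians were 0.11, 0.03 and 0.37, and relative to all genes they were 0.01, -0.04 and 0.09 with quantile normalization and -0.03, -0.12 and 0.23 with dim genes left out.

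**Figure D3:**
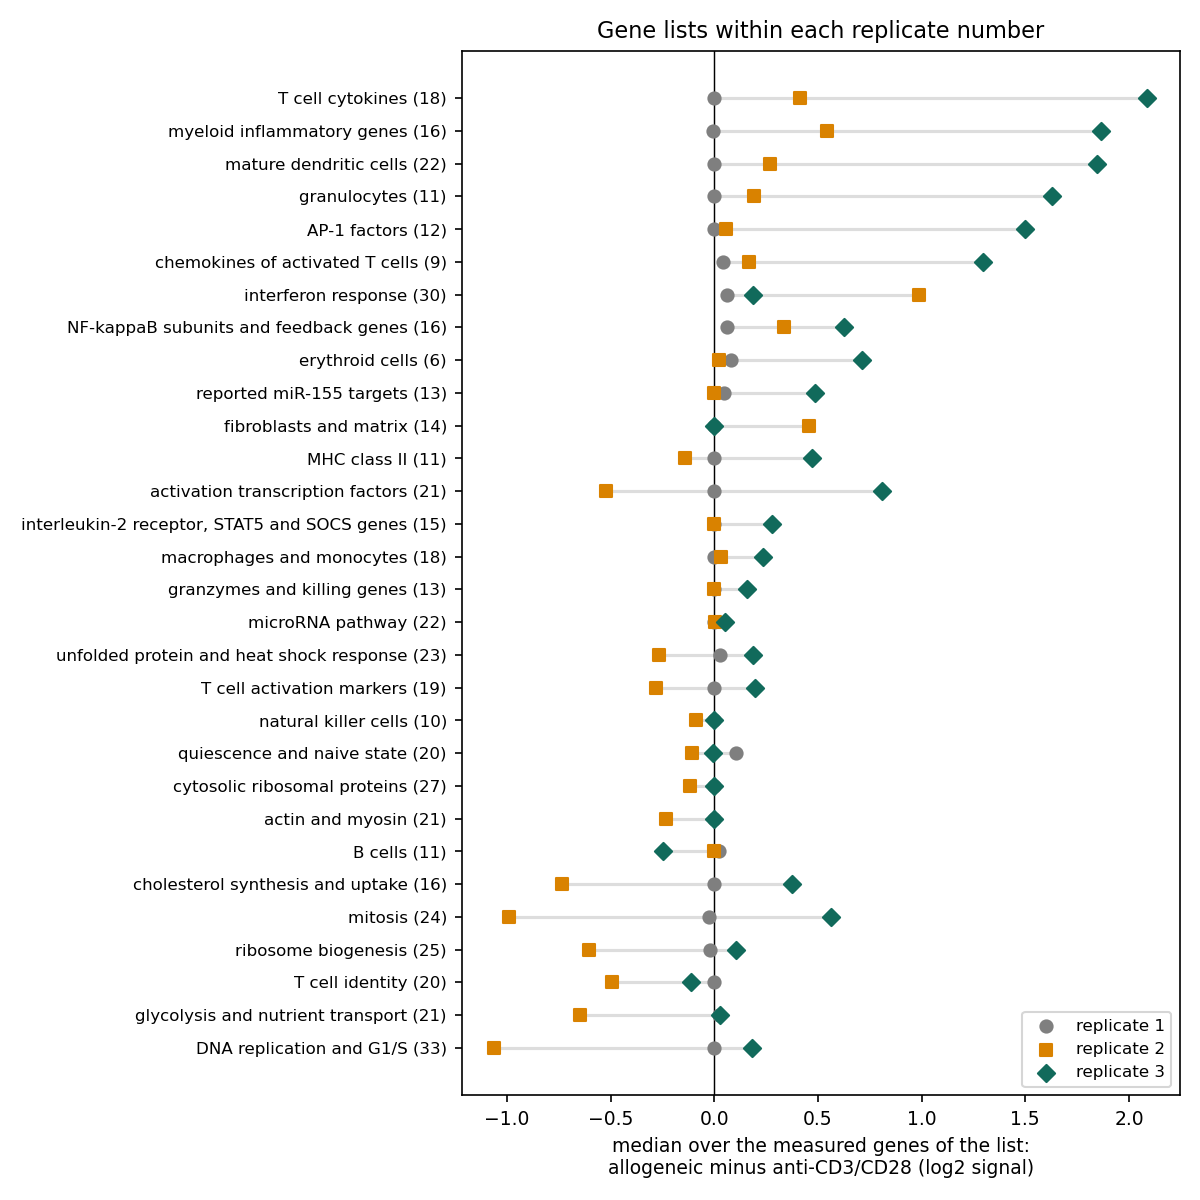
Median allogeneic minus anti-CD3/CD28 difference in log2 signal (horizontal axis) over the measured genes of each of 30 lists, whose number of genes is in brackets, with a marker for each replicate number. Replicate 1 sits near 0 for every list, DNA replication reaches -1.06 in replicate 2 and T cell cytokines 2.09 in replicate 3.

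Interferon response genes stood higher in the allogeneic array of replicate 2. Of 30 measured, 27 were higher in that number, with a median of 0.99 and 15 over 1, beside 47.0% of all genes higher. In replicate 3, 19 were higher, 8 lower and 4 over 1, beside 43.1%, 28.1% and 9.16% of all genes. The median there was 0.19 and, relative to all genes, ranged from 0.05 to 0.28 over 4 alternatives, of which centring cannot move it. Higher in replicates 2 and 3 were 19 of the 30, beside 16.5% of all genes. The list averaged 7.73, 9.28 and 9.42 on the allogeneic arrays and 7.65, 8.27 and 9.07 on the antibody arrays. It averaged 8.28, 9.26 and 9.75 on the syngeneic arrays, so the higher level was not particular to the allogeneic group. Irf7, the transcription factor that amplifies type I interferon, read 5.64, 9.61 and 9.41 on the allogeneic arrays against 5.42, 6.96 and 8.95. Rsad2, the antiviral enzyme viperin, read 6.97, 9.55 and 7.997 against 6.97, 6.95 and 7.24. Isg20, an interferon-induced exonuclease, had the widest shared difference, at 5.56, 9.11 and 9.77 against 5.43, 7.24 and 7.38. Mx1 read 5.12, 6.86 and 5.96 against 5.05, 4.76 and 4.95 and did not overlap, although the antibody arrays of replicates 2 and 3 lay under their medians. Irf1 and the GTPase genes Gbp2, Gbp3, Gbp6, Iigp1, Igtp and Irgm1, picked after their values were seen, differed by -0.42 to 0.10 in replicate 2 and by -0.67 to 0.32 in replicate 3.

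Inflammatory chemokines and cytokines and the interferon genes are known targets of the transcription factors NF-kappaB and ISGF3, so promoters of members that differed in replicates 2 and 3 were searched for simple motif strings. The sequences run from 250 bases before to 50 after the transcription start, 5′ to 3′ on the strand of the gene, and come from RefSeq on GRCm38.p6. The kappaB string, GGGA then any base then TTTCC, was searched on both strands, and its matches are in capitals for Il6 (chr5:30012864-30013163, plus strand), Cxcl3 (chr5:90785851-90786150, plus strand) and Cxcl1 (chr5:90890995-90891294, plus strand).
Il6: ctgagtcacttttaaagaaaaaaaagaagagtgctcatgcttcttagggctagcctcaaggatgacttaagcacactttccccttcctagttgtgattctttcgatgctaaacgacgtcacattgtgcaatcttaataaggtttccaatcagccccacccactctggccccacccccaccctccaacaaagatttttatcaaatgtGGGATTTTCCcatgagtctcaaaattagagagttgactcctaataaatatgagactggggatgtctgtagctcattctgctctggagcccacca
Cxcl3: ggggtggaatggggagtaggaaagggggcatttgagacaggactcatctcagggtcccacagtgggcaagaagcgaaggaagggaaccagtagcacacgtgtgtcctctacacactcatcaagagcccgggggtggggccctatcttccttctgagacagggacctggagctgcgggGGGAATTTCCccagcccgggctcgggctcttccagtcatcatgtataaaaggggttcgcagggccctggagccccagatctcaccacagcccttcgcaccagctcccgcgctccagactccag
Cxcl1: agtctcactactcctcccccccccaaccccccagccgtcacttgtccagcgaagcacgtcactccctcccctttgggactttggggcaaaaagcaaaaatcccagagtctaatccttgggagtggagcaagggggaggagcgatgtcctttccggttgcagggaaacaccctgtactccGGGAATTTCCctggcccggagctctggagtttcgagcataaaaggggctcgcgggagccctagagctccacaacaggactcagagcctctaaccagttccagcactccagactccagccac
The matches start 44, 73 and 71 bases before the transcription start (positions -44, -73 and -71). None of the 3 holds a match of the interferon motif described next. In all, 135 of 32851 promoter entries (0.411%) held the string, as did 3 of the 78 genes with a promoter entry among the 101 higher genes, which are the 3 printed, and 0 of 26 among the lower genes. Cxcl1 read 7.03, 8.71 and 9.20 on the allogeneic arrays and 7.03, 7.53 and 4.98 on the antibody arrays. A gene counted if any of its promoter entries matched, whereas the share over all is per entry, so the shares are not on the same basis. The matches describe letters in a window and do not show binding.

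The interferon-stimulated response element was searched as GAAA then any 2 bases then GAAA on both strands, and its matches, here in reverse complement, are in capitals for Ifit1 (chr19:34640639-34640938, plus strand) and Rsad2 (chr12:26456403-26456702, minus strand).
Ifit1: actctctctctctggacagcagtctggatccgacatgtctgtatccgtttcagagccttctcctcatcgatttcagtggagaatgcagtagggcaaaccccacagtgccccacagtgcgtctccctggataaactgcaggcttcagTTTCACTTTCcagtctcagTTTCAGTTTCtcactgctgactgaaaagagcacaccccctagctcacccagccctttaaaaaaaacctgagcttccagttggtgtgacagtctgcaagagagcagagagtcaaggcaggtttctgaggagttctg
Rsad2: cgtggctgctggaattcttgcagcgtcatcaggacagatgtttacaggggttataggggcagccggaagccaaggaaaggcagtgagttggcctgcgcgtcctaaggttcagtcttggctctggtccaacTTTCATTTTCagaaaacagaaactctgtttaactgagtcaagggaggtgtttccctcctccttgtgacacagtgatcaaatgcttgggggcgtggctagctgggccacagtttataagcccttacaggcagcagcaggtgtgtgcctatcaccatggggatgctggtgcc
Ifit1, an inhibitor of translation of viral RNA, holds 2 copies, at -104 and -85, and Rsad2 holds 1 at -120. Neither holds the kappaB string. The interferon motif was present in 1131 of 32851 promoter entries (3.44%), in 13 of the 22 interferon genes with an entry (59.1%), in 7 of 78 higher genes (8.97%) and in 0 of 26 lower genes. The 13 also included Gbp2, Gbp3, Igtp and Irgm1, named above among the genes that were not clearly higher in replicate 2. Here too the share over all is per entry and the others are per gene with any matching entry. The interferon list is made of genes known as interferon targets, many through this element. Ifit1 read 7.25, 10.39 and 10.39 against 7.08, 8.45 and 9.72.

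NF-kappaB subunits and feedback genes were slightly higher in the allogeneic arrays of replicates 2 and 3. Of 16 measured, 14 were higher in each of those numbers and 12 in both, beside 47.0%, 43.1% and 16.5% of all genes. The list averaged 8.83 and 10.25 on allogeneic replicates 2 and 3 and 8.42 and 9.50 on the antibody arrays. The syngeneic arrays of those numbers averaged 8.94 and 10.20, near the allogeneic arrays. The median differences between allogeneic and antibody arrays were 0.33 and 0.63. Relative to all genes, they ranged from 0.29 to 0.58 and from 0.48 to 0.71 over 4 alternatives, of which centring cannot move them. Nfkbia, the inhibitor that NF-kappaB itself induces, read 12.23, 12.03 and 11.83 against 12.01, 11.24 and 11.30. It was higher in all 3 numbers, with all 5 probe sets of the same sign in replicates 2 and 3, yet the groups overlapped because the antibody array of replicate 1 read above the allogeneic array of replicate 3. Bcl3, a nuclear cofactor, read 7.44, 8.92 and 10.66 against 7.38, 6.95 and 9.30. Relb, a subunit used by mature dendritic cells, read 5.06, 6.46 and 9.16 against 5.06, 5.70 and 7.03.

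T cell cytokines differed mainly in replicate 3. Of 18 measured, 15 were higher there with a median of 2.09 and 13 over 1, beside 43.1% and 9.16% of all genes. In replicate 2, 13 were higher with a median of 0.41 and 2 over 1, beside 47.0% and 1.47% of all genes. Those 2 were Il2 and Il6, and the Il6 signals were mostly at or under the array median. Il2, the T cell growth factor, read 8.01, 9.47 and 11.54 on the allogeneic arrays and 8.01, 7.48 and 9.18 on the antibody arrays. Replicate 1 was equal, replicates 2 and 3 differed by 1.99 and 2.35, and the groups overlapped. Il17a read 6.90, 4.74 and 10.02 against 6.90, 4.52 and 3.42, and its syngeneic array of replicate 3 read 10.67. Il3, a growth factor for myeloid progenitors, read 4.62, 4.85 and 9.38 against 4.63, 4.85 and 4.74, so 1 of the 6 arrays was high. Il9 read 5.48, 6.30 and 10.75 against 5.19, 5.84 and 7.33, Csf2 read 6.08, 8.18 and 9.14 against 6.08, 7.72 and 5.74, and Ifng, the signature cytokine of type 1 cells, read 10.97, 9.42 and 10.85 against 10.73, 9.05 and 9.53. Tnf and Ltb differed by 0.18 or less in every number.

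All 9 measured chemokines of activated T cells were higher in replicate 3, with a median of 1.30, and 5 of 9 in replicate 2. Of all genes, 43.1% were higher in replicate 3 and 47.0% in replicate 2. Ccl5, a chemokine of memory and effector cells, read 10.39, 10.21 and 12.19 against 10.26, 8.26 and 10.89, and Ccl9 read 6.34, 7.83 and 8.39 against 5.72, 6.57 and 4.96. Ccl3 and Ccl4, released by activated cytotoxic cells, differed by -0.42 and -0.20 in replicate 2 and by 0.80 and 0.27 in replicate 3. The replicate 2 median was 0.17, and relative to all genes it became -0.20 with dim genes left out.

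**Figure D4:**
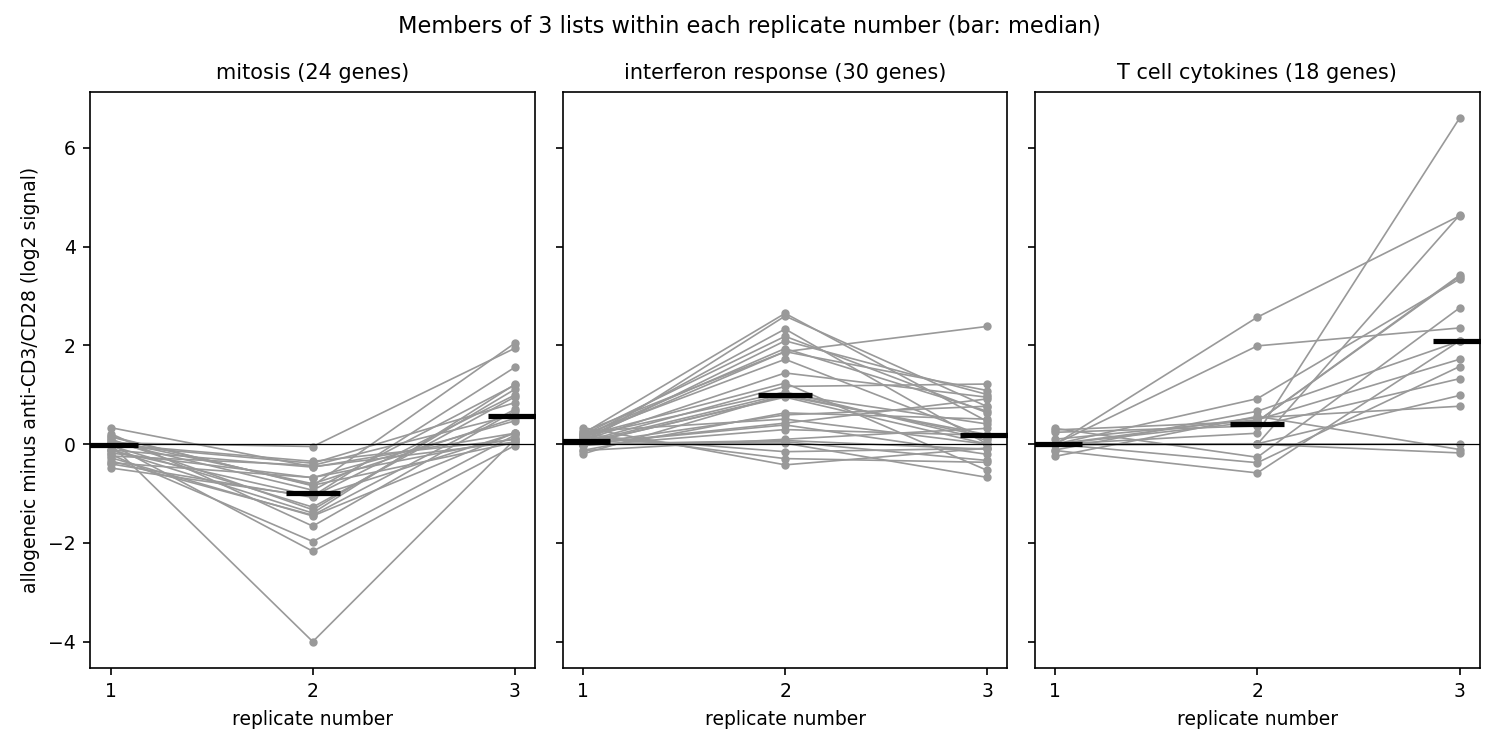
Allogeneic minus anti-CD3/CD28 in log2 signal (vertical axis) by replicate number (horizontal axis) for each measured member of 3 lists, joined by grey lines, with a bar at the median. Mitosis lies below 0 in replicate 2 and mostly above it in replicate 3, the interferon median is highest in replicate 2 at 0.99 and the cytokine median in replicate 3 at 2.09.

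Transcription factors of T cell activation followed the split between replicates. Of 21 measured, 18 were lower in replicate 2 (median -0.52) and 16 higher in replicate 3 (median 0.81), and 14 did both. Of all genes, 31.4% were lower in replicate 2, 43.1% were higher in replicate 3 and 18.5% did both. Relative to all genes, the replicate 3 median was 0.48 with quantile normalization (13 of 21 higher) and 0.52 with the median over probe sets. Nr4a1, an immediate early nuclear receptor induced by T cell receptor signalling, read 6.60, 5.81 and 8.43 against 6.64, 7.93 and 8.72. Nr4a3 read 8.90, 6.81 and 10.25 against 8.82, 8.55 and 9.26, and Egr2 read 8.05, 7.32 and 8.37 against 7.63, 8.77 and 8.37. Bhlhe40 and Id2 were exceptions, higher in every number without overlap between the groups: Bhlhe40 read 8.61, 8.94 and 11.03 against 8.50, 8.35 and 8.56, and Id2 read 8.12, 8.22 and 9.56 against 7.99, 7.87 and 6.93. For Id2, however, only 1 of 3 probe sets had that sign in replicate 2 and 2 of 3 in replicate 3. Eomes, a regulator of cytotoxic and memory cells, read 8.25, 7.59 and 8.58 against 8.22, 8.46 and 9.58. Among 12 AP-1 genes, 10 were higher in replicate 3, beside 43.1% of all genes. Their median was 1.498, or, relative to all genes, 0.72 with quantile normalization. The replicate 2 median was 0.06 and, relative to all genes, -0.04 with quantile normalization. Jun, the partner of Fos in AP-1, read 9.15, 10.46 and 10.96 against 9.15, 9.06 and 8.82.

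T cell identity genes were lower in the allogeneic arrays of replicates 2 and 3, by small amounts. Of 20 measured, 18 were lower in replicate 2, 14 in replicate 3 and 13 in both, beside 31.4%, 28.1% and 9.15% of all genes. The medians were -0.49 in replicate 2 and -0.11 in replicate 3. Cd3e, a chain of the receptor complex, read 11.09, 10.41 and 11.26 against 10.94, 10.72 and 11.45. Cd5, an inhibitory receptor set by receptor signalling, read 8.72, 7.88 and 10.55 against 8.72, 8.72 and 11.31, and Cd8b1 read 10.84, 9.63 and 10.94 against 10.84, 10.18 and 11.46. Cd28 was the member past 1 in both numbers. Activation markers were mixed: Il2ra, the high-affinity interleukin-2 receptor chain, differed by 0.18, 0.31 and 0.28 and Cd69 by 0.09, 0.27 and 0.20, while Ctla4 differed by 0.02, -0.76 and -0.24 in replicates 1, 2 and 3. Of the cytotoxic genes, Gzmb read 10.86, 10.09 and 11.23 against 10.88, 10.19 and 11.42, and Gzma read 5.84, 7.57 and 7.53 against 5.64, 6.27 and 4.40.

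Dendritic cell transcripts stood higher in the allogeneic arrays of replicates 2 and 3. Of 22 measured genes of mature dendritic cells, 16 were higher in replicate 2 (median 0.27) and 20 in replicate 3 (median 1.84), 15 in both, and 6 were past 1 in both: Ccl17, Ccl22, Fscn1, Cd86, Socs2 and Ccl5. Of all genes, 47.0%, 43.1% and 16.5% were higher in replicate 2, in replicate 3 and in both, and 0.555% were past 1 in both. Ccl5 is also on the list of activated T cell chemokines, and Socs2 on that of interleukin-2 receptor, STAT5 and SOCS genes, so neither is particular to dendritic cells here. The dendritic cell list's mean level was 7.01, 7.33 and 8.77 on the allogeneic arrays, 6.92, 6.83 and 6.79 on the antibody arrays and 6.99, 7.77 and 8.80 on the syngeneic arrays. The allogeneic arrays had 5 to 8 of the 22 genes at or under the array median and the antibody arrays 7 to 10. Fscn1 read 10.44, 9.46 and 12.16 on the allogeneic arrays against 9.97, 7.75 and 7.72, with 4 of 4 probe sets higher in replicates 2 and 3. Ccl22, a partner of Ccl17 at the receptor CCR4, read 11.64, 10.88 and 12.13 against 11.17, 9.80 and 9.95. Cd86, a ligand of CD28 on antigen-presenting cells, read 6.94, 7.91 and 10.22 against 6.84, 6.82 and 6.78, so the antibody arrays were level while the allogeneic arrays were spread. Cd209a, which marks a dendritic cell subset, and Itgax, which encodes CD11c, the target of the depletion, were low on every array: Cd209a was equal in each number and Itgax read 4.17 to 6.14 and 3.95 to 5.86.

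Class II and myeloid genes gave further values. H2-Ea, whose product is made by BALB/c and not by C57BL/6 cells, read 4.55, 7.16 and 9.57 on the allogeneic arrays, 4.55, 6.57 and 4.10 on the antibody arrays and 4.49, 6.64 and 4.00 on the syngeneic arrays. Only the allogeneic array of replicate 3 was set apart. Of its other probe sets, the first read 5.72 and 9.88 on allogeneic replicates 2 and 3 and 3.98 and 3.44 on the antibody arrays, but 7.87 on the syngeneic array of replicate 2, and the other read 4.25 or less on all 6 arrays. Of the 11 class II genes measured, 8 were lower in replicate 2 (median -0.14, lowest H2-DMb2 at -1.002) and 8 higher in replicate 3 (median 0.47, lowest H2-Ob at -1.36), and H2-Ea was the 1 gene higher in both. Of all genes, 31.4% were lower in replicate 2 and 43.1% higher in replicate 3. With quantile normalization the class II median of replicate 2 turned to 0.01, with 5 of 11 lower. Cd74, the invariant chain, read 9.55, 9.55 and 12.31 against 9.27, 9.64 and 11.84. Cst3, an inhibitor of cathepsins rich in dendritic cells, read 10.19, 10.43 and 12.26 against 9.89, 8.99 and 8.82, with no overlap. Lyz2, the lysozyme of myeloid cells, read 8.68, 9.04 and 9.44 against 8.23, 8.12 and 6.32, and Csf2rb, the shared receptor chain for Il3 and Csf2, read 7.67, 7.57 and 10.65 against 7.23, 6.60 and 6.04. The syngeneic arrays read 10.51, 11.24 and 12.21 for Cst3, 12.61, 10.87 and 11.44 for Lyz2 and 8.90, 10.20 and 11.25 for Csf2rb. Those of Lyz2 and Csf2rb lay above the allogeneic array of every number, so these levels were not particular to the allogeneic group. The 18 macrophage and monocyte genes averaged 5.40, 6.19 and 5.97 against 5.37, 6.15 and 5.10, with Csf1r at 4.37, 5.91 and 6.63 against 4.28, 5.58 and 4.26. On the syngeneic arrays the 18 genes averaged 6.51, 7.51 and 7.05. Granulocyte genes, 11 measured, averaged 4.58, 5.26 and 5.85 against 4.60, 4.97 and 4.01, and 4.71, 5.32 and 6.07 on the syngeneic arrays. The part of these cells in the differences listed above was not tested.

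**Figure D5:**
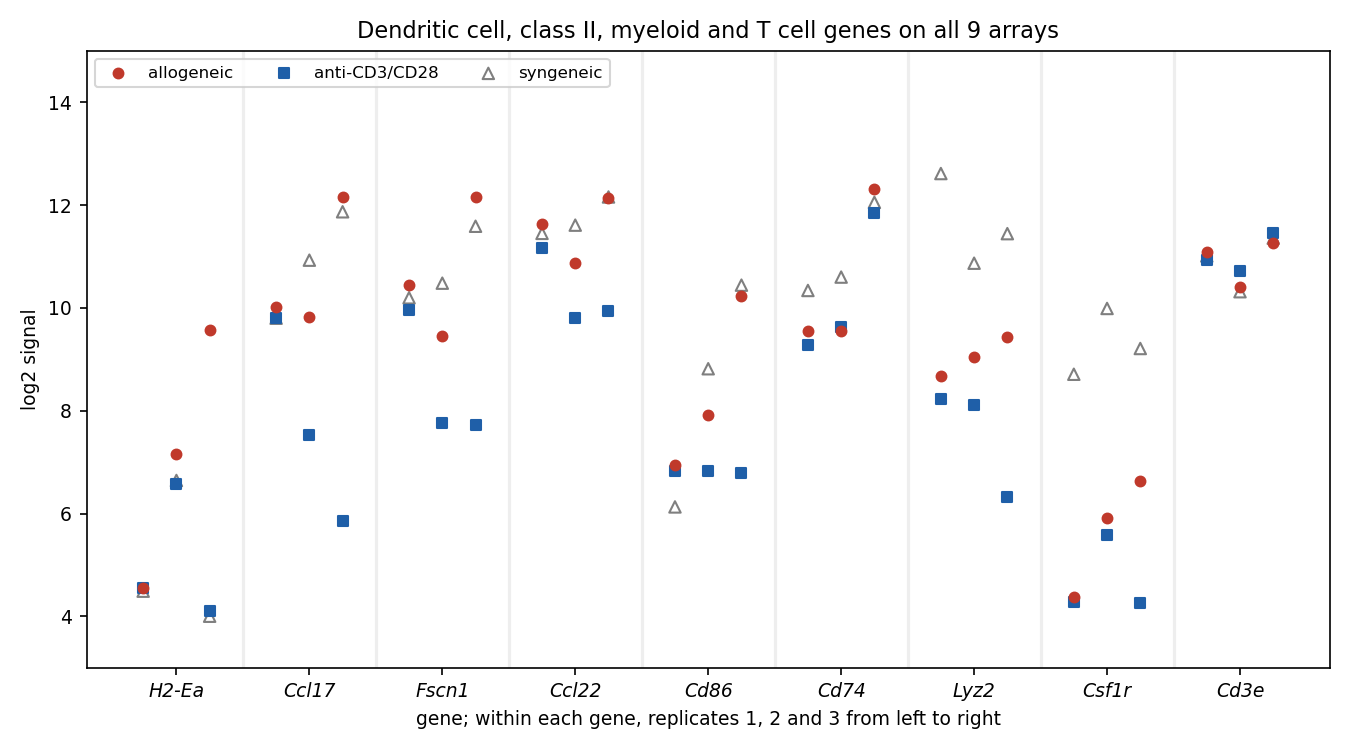
Log2 signal (vertical axis) on all 9 arrays for class II, dendritic cell, myeloid and T cell genes, with allogeneic arrays as red circles, antibody arrays as blue squares, syngeneic arrays as grey triangles, and replicates 1, 2 and 3 from left to right within each gene. H2-Ea is highest on the allogeneic array of replicate 3 at 9.57, and the antibody arrays of replicates 2 and 3 are lowest for Ccl17 and Fscn1.

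Genes of opposite sign in replicates 2 and 3 included Spc25, a kinetochore subunit, at 7.47, 4.45 and 7.35 against 6.97, 7.37 and 5.39, and Scin, a gelsolin family protein that severs actin, at 4.55, 4.51 and 9.20 against 4.47, 6.20 and 5.74. Chchd6, Pfn2 and Gemin8 had the same pattern, with differences of -2.18, -1.82 and -2.03 in replicate 2 and of 2.86, 1.77 and 1.71 in replicate 3. In the reverse pattern, Nap1l5, Megf11, H2-Q5, Gabbr1 and Clcf1 differed by 2.43, 1.73, 1.48, 1.42 and 1.30 in replicate 2 and by -2.37, -2.18, -1.53, -1.44 and -1.53 in replicate 3. H2-Q5, a nonclassical class I gene with close paralogs that probe sets may share, is uncertain. Replicate 1 gave differences of 0.49 or less in size for these 10 genes.

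Genes of the microRNA pathway, to which the AGO-bound RNA itself relates, had medians of 0.00 and 0.05 in replicates 2 and 3, beside 0.00 for all genes. Of 22 measured, none was past 1 in replicate 2 or 3. Of all genes, 1.47% were over 1 and 4.3% under -1 in replicate 2, and 9.16% and 1.96% in replicate 3. A list of 22 with none past 1 lies near those shares. Ago2, the slicing Argonaute, differed by 0.11, -0.65 and 0.01 in replicates 1, 2 and 3, and Dicer1, which cuts microRNA precursors, read 8.80, 9.11 and 9.88 against 8.96, 9.11 and 9.53. Of 13 reported targets of miR-155, 4 were over 1 in replicate 3 and 0 in replicate 2, with medians of 0.48 and 0.00. Of all genes, 9.16% were over 1 in replicate 3 and 1.47% in replicate 2. Socs1, a known miR-155 target that restrains cytokine signalling, differed by 0.00, 0.00 and 0.71, and Bach1 by -0.19, -1.15 and 0.32 in replicates 1, 2 and 3.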

How the data were processed

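The authors deposited 1 log2 signal for each probe set and array, processed by robust multi-array average (RMA) per the submitters' processing notes, and its software, version and array grouping were not given in the sources used here. Of 45101 probe sets on 9 arrays, those left out were 64 control probe sets, 932 that name several genes and 9160 that name none. The other 34945 remained, symbols were brought up to date by gene ID for 34741, and the probe set with the highest mean over the 9 arrays stood for each of 18193 genes (9010 had more than 1). All 9 arrays were fitted with limma 3.58.1 (R 4.3.3; lmFit, eBayes with an intensity trend, no block), with the contrast allogeneic minus antibody and Benjamini-Hochberg adjustment over all genes. The fit was tested on simulated data. Differences, counts and list medians were computed in Python 3.11.15.

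The replicate numbers were taken from the titles. Deviations from the group means correlated between arrays of the same number at 0.811 to 0.921 in all 9 pairs, so the numbers were treated as pairing the arrays. Arrays give no read depth, and 3 arrays a group limit the precision. The genes named are the first 12 in each direction by the smaller of the replicate 2 and 3 differences (5 for each opposite pattern) with a mean in the higher group at or above the array median, up to 4 widest members of each list, any gene called, and a short set that included H2-Ea, Il2 and Il3; other genes given with values, among them further list members and those whose groups did not overlap, were chosen after their values were seen. The comparison and the 31 lists (527 of 582 genes measured) were chosen with earlier results of these data known. Alternatives were the replicate block, fixed or random, quantile normalization, centring, leaving out dim genes (under the 40th percentile) or arrays, other variance priors, the median over probe sets, and other size thresholds; 3 combinations with the block were added after seeing the data.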

Additional observations from a re-analysis of the deposited data

How the results depend on the processing

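No gene was called by limma under any alternative run. The count of called genes stayed at 0 without each replicate number in turn and without each of the 6 arrays in turn (range 0 to 0). With the replicate block, which the pairing of the numbers supports, 0 genes were called, as they were with the block combined with quantile normalization, with dim genes left out or with the median over probe sets, which were chosen after seeing the data; the block changed no call. Genes at an unadjusted p under 0.05 went from 24 to 205 with the block and to 557 with the block and without replicate 1, whose smallest adjusted p was 0.852.

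The counts past a size in replicates 2 and 3 moved more. Against 101 higher, 32 lower and 98 opposite, quantile normalization gave 64 lower and centring gave 73 lower and 48 opposite. A threshold of 0.5 gave 410 higher, 197 lower and 737 opposite, and 1.5 gave 28, 7 and 14. Of the 105 higher and 64 lower genes under quantile normalization, 66 and 28 were shared with the main counts, and with the median over probe sets 58 of 72 and 16 of 30 were. Relative to all genes, 29 list medians in replicates 2 and 3 were past 0.25 in size, and 0 of them changed sign under up to 4 alternatives of scaling, filter and probe set. Centring is among these and cannot change such a median, so it adds no support. Why the counts moved was not tested. Signals at or under the array median carry no detection call here and limit Il6, Aldh1a2, H60c and Mfsd4a (5 of 6 signals there), S1pr3, Mreg, Lmo7, Nap1l5 and Megf11 (4) and Cxcl3, Scin and H2-Ea (3).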

Other observations

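Some genes of other cell types had values not described above. Ighm, the heavy chain of immunoglobulin M, read 12.60, 11.59 and 12.76 on the allogeneic arrays and 12.002, 10.68 and 12.30 on the antibody arrays, higher in every number, and Jchain, which joins immunoglobulin chains in plasma cells, read 9.18, 9.63 and 11.30 against 9.04, 8.65 and 8.59 without overlap. Other B cell genes went the other way in replicate 3, with Ms4a1 (CD20) at 7.40 against 9.32 and Pax5 at 5.20 against 6.54. Of 11 B cell genes measured, 9 were lower in replicate 3 and 4 in replicate 2, beside 28.1% and 31.4% of all genes.

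Of the 6 arrays compared, several genes were highest on the allogeneic array of replicate 3. Klf1, the erythroid transcription factor, read 4.39, 5.50 and 8.06 against 4.29, 5.50 and 3.90 (syngeneic replicate 3: 6.08), and Car2, carbonic anhydrase, read 11.13 against 8.43 in replicate 3 and differed by 0.03 and 0.39 in replicates 1 and 2 (syngeneic replicate 3: 10.69). S100a9, a calcium-binding protein of neutrophils, read 5.42, 7.11 and 9.23 against 5.42, 6.97 and 3.73 (syngeneic replicate 3: 9.25), and Il1b read 5.70, 6.51 and 10.14 against 5.61, 6.25 and 4.81 (syngeneic replicate 3: 10.81). Pim2, a survival kinase induced by cytokines, was lower in every number at 8.82, 6.85 and 9.93 against 8.90, 8.61 and 10.72.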
